A study of Caenorhabditis elegans with 2 samples.

Results

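The sites described here are entries of the UNC-62 peak list that lie beside genes for tRNAs, small nuclear RNAs (snRNAs) and small nucleolar RNAs (snoRNAs). They were chosen by position alone: an entry was taken when its summit lay within 300 bp of a gene record of one of these biotypes on a nuclear chromosome. This rule found 382 of the 30000 entries called on the pooled replicates. By the class of the nearest gene, 191 lay beside tRNA genes, 10 beside SL2 genes (snRNA genes with sls-2 names), 29 beside other snRNA genes and 152 beside snoRNA genes. Only 1 of the sites lay within 300 bp of genes of more than 1 class, 67 overlapped another of the sites, and 81 shared their nearest gene with another, so that 341 different genes were nearest. The sites are therefore not independent of each other.

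The protein studied, UNC-62, is the worm member of the Meis family of homeodomain factors. Its sites were mapped by ChIP-seq, in which DNA that comes down with a protein is sequenced. The samples were whole L1 larvae, the first larval stage, of mixed sex and of strain OP600. That strain carries the unc119(ed3) mutation and the transgene wgIs600, which holds unc-62 fused to TY1, EGFP and FLAG tags together with unc119. Both biological replicates, numbered 1 and 2, carried the same genotype and formed the only group, so no conditions could be compared. The labels do not say which cells make the tagged protein, and a larva holds many tissues. Possible control libraries are named in the labels and were not analysed here.

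Each entry carries a signal value, the authors' own measure of enrichment, which serves here only to rank and describe entries within a list. Each list of the pooled data and of each replicate held 30000 entries of fixed width, so a place in a list shows little about binding, and ranks are the readout. The strongest 5% of the pooled list were the 1500 entries with a signal of 19.7 or more. A shorter list, cut at a limit of the irreproducible discovery rate (IDR, a measure of how alike ranks are in 2 replicates), held 119 intervals, and the weakest of them had a pooled signal of 35.0. The lists hold no read counts, so depth is unknown. No test was run, because sites are not replicates and each share is set beside the same share over all 30000 entries instead.

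Transfer RNA genes are transcribed by RNA polymerase III from promoter elements inside the gene, the A box and the B box, to which the factor TFIIIC binds. Most snRNA genes depend instead on a proximal sequence element a short way before the gene, which is read by the SNAP complex. SL2 RNAs are small nuclear RNAs of nematodes whose leader is spliced onto the messages of downstream genes in operons, while SL1 RNA supplies the leader of most other trans-spliced messages. snoRNAs guide chemical modification of ribosomal RNA, and many in worms lie in introns of protein-coding genes. Meis-class proteins bind DNA at a TGACAG hexamer.

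Sequence before the small RNA gene is shown for snRNA, SL2 and snoRNA sites among the strongest 5%, because the summits of many of these sites fell there. Each line gives the 100 bases that end just before the gene, on the gene's strand, read from the RefSeq sequence of WBcel235, the sequence of ce11. Capitals mark the words AACCCG and TGTCGG, the 6-base words held most often between 100 and 21 bases before snRNA genes. The snRNA and SL2 genes come first, in order of signal. The stretches printed are a selection, and both snoRNA stretches hold a marked word. Of the snoRNA sites among the strongest 5%, 4 lay beside a gene with either word and 25 beside a gene with neither. The summits beside sls-2.2 and sup-39 lay past the end of the gene and so outside the stretch printed.
C52E4.8 (snRNA, chrV:11980018-11980117, plus strand): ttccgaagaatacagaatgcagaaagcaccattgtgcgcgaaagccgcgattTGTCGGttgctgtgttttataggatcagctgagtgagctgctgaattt
sls-2.2 (SL2, chrII:5543498-5543597, plus strand): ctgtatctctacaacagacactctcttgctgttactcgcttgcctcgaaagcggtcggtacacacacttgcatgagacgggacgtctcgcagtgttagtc
F38E11.10 (snRNA, chrIV:9444542-9444641, plus strand): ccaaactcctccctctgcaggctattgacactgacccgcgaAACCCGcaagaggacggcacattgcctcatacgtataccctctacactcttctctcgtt
W05B2.8 (snRNA, chrIII:10989579-10989678, plus strand): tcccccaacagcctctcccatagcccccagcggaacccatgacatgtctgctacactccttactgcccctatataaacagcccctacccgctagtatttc
sls-2.1 (SL2, chrII:5844765-5844864, plus strand): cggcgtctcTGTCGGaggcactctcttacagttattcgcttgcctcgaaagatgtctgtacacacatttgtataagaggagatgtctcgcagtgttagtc
sls-2.3 (SL2, chrII:5544274-5544373, minus strand): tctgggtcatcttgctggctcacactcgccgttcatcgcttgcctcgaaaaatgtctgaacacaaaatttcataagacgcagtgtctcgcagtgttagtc
sls-2.8 (SL2, chrIII:12250365-12250464, plus strand): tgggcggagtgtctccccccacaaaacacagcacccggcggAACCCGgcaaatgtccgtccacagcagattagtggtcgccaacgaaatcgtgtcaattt
sup-39 (snRNA, chrII:6968559-6968658, minus strand): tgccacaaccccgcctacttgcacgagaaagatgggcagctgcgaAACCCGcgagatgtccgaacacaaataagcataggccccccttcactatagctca
ZK994.7 (snoRNA, chrV:8500479-8500578, plus strand): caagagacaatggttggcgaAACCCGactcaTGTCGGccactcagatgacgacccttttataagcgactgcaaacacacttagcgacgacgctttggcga
Y53F4B.47 (snoRNA, chrII:15025894-15025993, minus strand): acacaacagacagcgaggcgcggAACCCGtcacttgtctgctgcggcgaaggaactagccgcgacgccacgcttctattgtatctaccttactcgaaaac

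The upstream stretches of sls-2.1, sls-2.2 and sls-2.3 resemble each other in part. The stretches of sls-2.1 and sls-2.2 carried the same base at 79 of 100 positions, sls-2.1 and sls-2.3 at 70, and sls-2.2 and sls-2.3 at 65. The stretch before sls-2.8 matched that of sls-2.1 at 36 positions. For tRNA sites the part chosen for display is the B box inside the gene. The core GTTCGA, in capitals below, is shown in 3 whole tRNA genes on the gene's strand. They were picked after their values were seen, among tRNA genes beside the strongest 5% of entries. Of the 30 tRNA sites among the strongest 5%, 12 had the summit inside the gene and 17 had GTTCGA in the window.
C06G1.t1 (tRNA-His, chrX:16634830-16634901, minus strand): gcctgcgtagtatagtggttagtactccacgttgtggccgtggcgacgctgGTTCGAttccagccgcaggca
R04D3.t2 (tRNA-Val, chrX:13307034-13307106, plus strand): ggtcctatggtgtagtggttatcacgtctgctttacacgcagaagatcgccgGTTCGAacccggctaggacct
T07H6.t2 (tRNA-Ala, chrX:6292278-6292349, minus strand): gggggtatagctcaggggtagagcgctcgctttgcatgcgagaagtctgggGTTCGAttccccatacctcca

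The pooled summits lay inside all 3 of these genes, 49, 18 and 22 bp from their 5′ ends, with signals of 25.7, 25.6 and 23.98. None of the 3 genes holds a stretch of 31 bases that is found only once in the genome. Repeated sequence is taken up below.

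Sites beside small RNA genes stood high in the pooled list. Of the 382 sites, 71 (18.6%, exact 95% binomial interval 14.8 to 22.9) were among the strongest 5% of the list, a group that holds 5% of all entries by construction. The share was 15.7% for tRNA sites (30 of 191), 24.1% for sites of other snRNA genes (7 of 29), 19.1% for snoRNA sites (29 of 152) and 50% for SL2 sites (5 of 10, interval 18.7 to 81.3). The intervals cover counting error only and treat sites as independent. These shares rested in part on replicate 2. In the replicate 1 list alone 10.4% of snoRNA sites (14 of 134) and 10.7% of tRNA sites (16 of 150) were among the strongest 5%, while in the replicate 2 list alone it was 21.6% (30 of 139) and 16.4% (34 of 207). Over all sites the replicate 1 list alone gave 12.0%. The median signal was 13.9 over all the sites, against 11.9 over all entries. It was 13.7 beside tRNA genes, 23.0 beside SL2 genes, 14.0 beside other snRNA genes and 14.0 beside snoRNA genes. The 3 medians of the classes other than SL2 lay between the median of the list and its upper quartile of 14.3. The median rank of the sites was 8398.5, against 15000.5 over all entries.

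**Figure D1:**
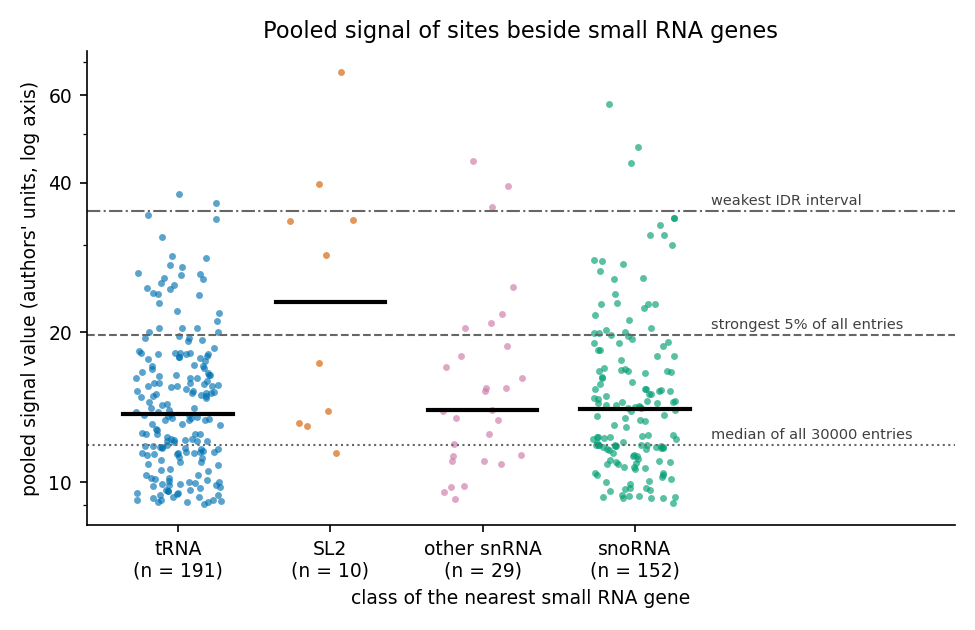
Pooled signal value (authors' units, log axis) of each site beside a small RNA gene, by class of the nearest gene; black bars are class medians and horizontal lines mark the median of all 30000 entries, the strongest 5% and the weakest IDR interval. The SL2 median of 23.0 lies above the line of the strongest 5%, while the other medians, from 13.7 to 14.0, lie between the lower lines.

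At the top of the list, 10 of the 382 sites (2.62%) were themselves IDR intervals, against 0.397% of all entries. Counting any shared base, 14 sites (3.66%) met an IDR interval, against 0.45% of all entries. The additional 4 sites were neighbouring entries beside W05B2.8, C52E4.8, C42D8.t1 and F38E11.10, genes that an IDR interval already marked. The 10 were 2 SL2 sites, 3 of other snRNA genes, 3 of snoRNA genes and 2 of tRNA genes.

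SL2 genes had the highest share of strong sites. Of the 18 annotated SL2 genes, 9 had a pooled summit within 300 bp, and at 5 of them that entry was among the strongest 5%. The strongest lay beside sls-2.4 (chrI:4172005-4172340), with a pooled signal of 66.6 and rank 14. Its summit was 33 bp before the gene, and it ranked 45 in replicate 1 and 14 in replicate 2. The nearest protein-coding 5′ end, 584 bp away, was that of egg-5, which encodes a pseudophosphatase of the egg-to-embryo transition. In all, 4 of the 5 strong SL2 summits fell within 36 bp before the gene.

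The other strong SL2 sites lay on chromosomes II and III. Beside sls-2.2 (chrII:5543570-5543905) the pooled signal was 39.8, with ranks of 192 and 88 in replicates 1 and 2. That summit lay 31 bp past the end of the gene. Beside sls-2.1 (chrII:5844661-5844996) the signal was 33.6, and the ranks were 15 and 354. Beside sls-2.3 (chrII:5544122-5544457) the signal was 33.6, with ranks of 470 and 172. The genes sls-2.2 and sls-2.3 face each other on chromosome II, so these are neighbouring sites. Beside sls-2.8 (chrIII:12250294-12250629) the signal was 28.7 with rank 271 in replicate 2, and replicate 1 had no entry.

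The remaining 5 SL2 sites had signals from 11.4 to 17.3, of which 1 was a second entry beside sls-2.1. These lay beside sls-2.14, sls-2.5, sls-2.7, sls-2.13 and sls-2.1. Of the SL2 windows only that of sls-2.8 was free of repeated sequence. None of the 12 SL1 genes had a pooled summit within 300 bp, nor an entry in either replicate list within 300 bp of its 5′ end. The windows at the SL1 5′ ends had a median unique share of 0%, so a lack of binding and a lack of sequence that can be told from its copies cannot be told apart there.

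Among other snRNA genes, 27 of 111 had a summit within 300 bp, and 7 had one among the strongest 5%. The strongest site (chrV:11979919-11980254) lay 31 bp before C52E4.8, with a pooled signal of 44.2. It ranked 53 in replicate 2 but 2467 in replicate 1, outside its strongest 5%. The nearest protein-coding 5′ end, at 364 bp, was that of snr-4, which encodes an Sm protein of the particles that contain snRNAs. Beside F38E11.10 (chrIV:9444448-9444783) the signal was 39.4 and the ranks were 101 and 129, both within the strongest 5%. Its summit lay 26 bp before the gene.

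Beside W05B2.8 (chrIII:10989448-10989783) the signal was 35.7, the ranks were 790 and 82, and the summit lay 63 bp before the gene, in an intron of the dynein heavy chain gene dhc-4. The next in signal were sup-39 (24.6), a U1 snRNA gene first known as a suppressor of a splice-site mutation, and F32B5.9 (21.8), in an intron of the cathepsin gene cpz-1. Both had an entry in replicate 2, at ranks 125 and 373, and none in replicate 1. The sup-39 summit lay 12 bp past the end of the gene, and that of F32B5.9 inside the gene. At F08G2.10, beside the histone gene his-42, 29.4% of the words in the window were found once in the genome, the lowest share of any site, and the signal was 9.82. The next lowest were the windows of the snoRNA gene T19C4.12 (44.1%, signal 12.3) and the snRNA gene C28A5.7 (49.0%, signal 13.5). The 6 windows of this class without repeated words included none of the strongest 5%. Within 1 kb of a coding 5′ end 5 of 14 sites of this class were among the strongest 5%, and farther away 2 of 15.

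snoRNA sites gave the second strongest of all the sites. Of 346 snoRNA genes, 140 had a summit within 300 bp and 29 had one among the strongest 5%. Beside F54E7.10 (chrIII:5678951-5679286), which lies in an intron of the ribosomal protein gene rps-12, the signal was 57.6 and the ranks were 91 and 33. That summit lay 259 bp before the snoRNA and 114 bp from the 5′ end of ska-3, so the snoRNA was not the nearest start. The site beside F39B2.14 (chrI:14759418-14759753; signal 43.8, ranks 1505 and 44) was likewise 174 bp before the snoRNA and 113 bp from the 5′ end of tmem-107, a gene of the ciliary transition zone.

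The site beside ZK994.7 (chrV:8500395-8500730) was far from any coding start. It lay in an intron of pxn-1, which encodes a peroxidasin, 5674 bp from the gene's 5′ end and 16 bp before the snoRNA. Its signal was 47.1, and it ranked 24 in replicate 2 and 1423 in replicate 1. Its whole window was free of repeated words. The stretch before this snoRNA, printed above, holds both AACCCG and TGTCGG. Beside Y53F4B.47 (chrII:15025770-15026105) the signal was 34.0, the ranks were 121 and 311 and the summit lay 45 bp before the gene, with AACCCG in the printed stretch. That summit was also near a coding start, 176 bp from the 5′ end of cmtr-1. Beside Y38F2AR.14, in an intron of Y38F2AR.12, the signal was 34.0 and the ranks were 744 and 185.

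snoRNA genes were reached both inside and outside introns. Of 172 snoRNA genes in introns of coding genes 37.2% were reached by a summit within 300 bp, and of the 174 others 43.7%. Of the 19 in introns of ribosomal protein genes 13 were reached, 3 of them by an entry among the strongest 5%. These were F54E7.10 in rps-12 and, named after their values were seen, D1007.20 in rpl-24.1 and Y43B11AR.7 in rps-4. As at F54E7.10, both of the latter summits lay nearer to a coding 5′ end than to the snoRNA. The nearest coding 5′ ends were those of rpl-24.1 and Y43B11AR.3. Among snoRNA sites over 1 kb from every coding 5′ end, 14 of 88 (15.9%) were among the strongest 5%, against 4.32% of all entries that far away. Among those within 1 kb it was 15 of 64 (23.4%), against 6.198% of all such entries.

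tRNA genes gave the most sites but few at the very top. Of 612 tRNA genes, 194 (31.7%) had a summit within 300 bp. The strongest site (chrX:8036325-8036660) had a signal of 37.97 and ranks of 118 and 590, and its window holds no repeated words. It lay 192 bp past the tRNA-Arg gene C18A11.t2 and 4820 bp from the nearest coding start, that of xol-1, the sex determination switch gene. The other tRNA site in the IDR list (chrX:5085478-5085813) had a signal of 36.3 and ranks of 173 and 249. Its summit lay inside the tRNA-Ile gene C42D8.t1, and the nearest coding start was that of the ETS factor gene ets-5, 1120 bp away.

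The next tRNA sites also lay on X. Beside F41D9.t3 (tRNA-Asn), in an intron of the sulfate permease family gene sulp-3, the signal was 34.4 with rank 120 in replicate 2 and no entry in replicate 1. Beside C04E7.t1 (tRNA-Leu), 252 bp from the start of sor-3, the signal was 33.9 with ranks of 326 and 346. Beside C33G3.t2 (tRNA-Lys) the signal was 31.1 with ranks of 5897 and 201. Of these 5 genes, 3 therefore ranked in the strongest 5% of both replicates.

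X held a large part of the tRNA sites. Of the 191 tRNA sites 105 lay on X, which carries 276 of the 612 tRNA genes and 17.97% of all pooled entries. On X, 39.1% of tRNA genes (108) had a summit within 300 bp, against 25.6% (86 of 336) on the autosomes, where the share ran from 21.2% on chromosome I to 32.8% on chromosome III. At the 5′ ends alone the order was the same in each replicate list: 29.3% on X against 17.0% on the autosomes in replicate 1, and 38.04% against 28.6% in replicate 2. Of the 30 strong tRNA sites 22 lay on X, so that 21.0% of tRNA sites on X were among the strongest 5%, against 9.30% on the autosomes. Entries of X as a whole were not stronger, with 5.16% among the strongest 5%. In replicate 1 taken alone the order of strength was not seen, since 9 tRNA sites on X and 10 on the autosomes met its strongest 5%, against 26 and 12 for replicate 2.

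The tRNA sites covered nearly every amino acid. At least 1 gene was reached for each of the 20 standard amino acids, from 20% of the genes for Asn and His to 44.1% for Ala. By number, strong sites were most frequent beside tRNA-Ala genes (5 of 15 sites) and tRNA-Lys genes (4 of 15). As a share of the sites, tRNA-Asn genes (2 of 5) and tRNA-Cys genes (1 of 3) had shares as high or higher. The 2 strong tRNA-Asn sites were overlapping entries beside 1 gene, F41D9.t3. They met the same replicate 2 entry and no replicate 1 entry. No strong site lay beside genes for Met, Phe, Ser, Thr, Trp or Tyr. The single tRNA-Sec gene had none within 300 bp. These groups are small, and many of the genes are copies: the 612 genes have 200 distinct sequences, up to 29 genes share 1 sequence, and 147 of the 173 tRNA genes nearest to a site have an identical copy elsewhere.

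Strong entries lay close to the genes. With the summit inside a tRNA, snRNA or snoRNA gene 24.7% of entries (19 of 77) were among the strongest 5%, and with the summit 1 to 100 bp away 26.7% (40 of 150). At 101 to 300 bp this share was 7.74% (12 of 155), at 301 to 600 bp 6.59% and at 601 to 1000 bp 6.25%. For tRNA genes it went from 30.0% inside the gene and 20.3% at 1 to 100 bp to 4.88%, 4.76% and 3.85% in the outer steps, which is at the level of all entries. For snoRNA genes it stayed higher, at 12.9%, 9.46% and 9.20%. The boundary at 300 bp itself passes through weak entries. Just inside it lay sites 297 bp from F08F1.t1 and 300 bp from F55F1.11, with signals of 10.1 and 15.3, and just outside it entries 303 bp from F32B5.17 and 304 bp from F37A4.t1, with signals of 10.6 and 11.4.

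**Figure D2:**
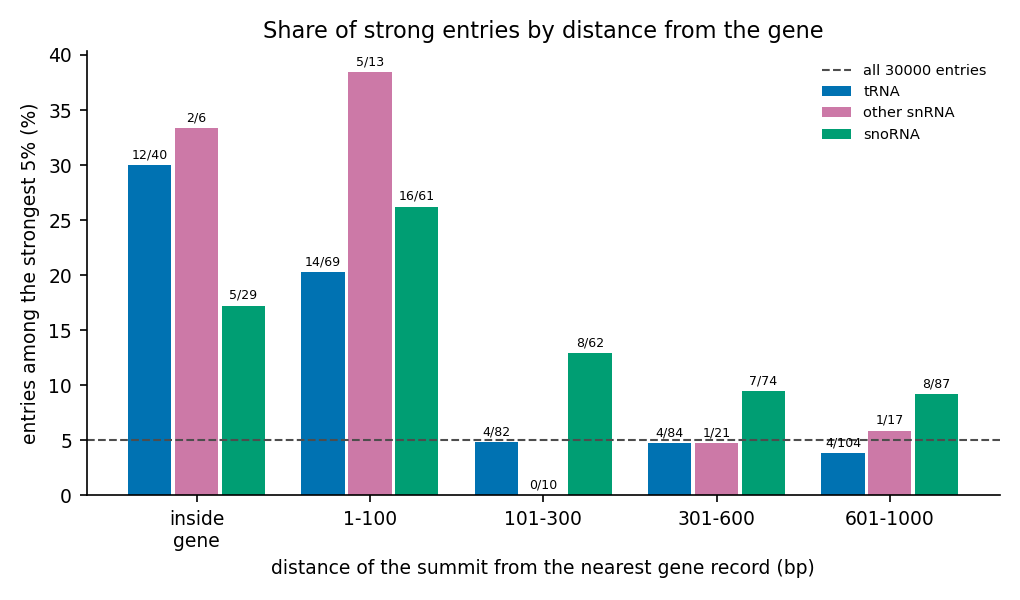
Percentage of pooled entries among the strongest 5% of the list, by distance of the summit from the nearest tRNA, other snRNA or snoRNA gene record (bp), with counts above the bars and the share over all 30000 entries as a dashed line. For tRNA genes the share fell from 30.0% inside the gene to 4.88% at 101 to 300 bp; SL2 genes are left out because they gave few entries.

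Position along the gene differed in the counts of the classes. Of 29 strong snoRNA summits 19 lay before the gene, and of 5 strong SL2 summits 4. Of 30 strong tRNA summits 10 lay before the gene, 12 inside it and 8 after it, with a median of 43 bp from the 5′ end. Over all 191 tRNA sites the summits were nearly even on either side, with 76 before, 40 inside and 75 after the gene. Sites of other snRNA genes lay mostly after the gene (17 of 29), but of the 7 strong ones 3 lay before it and 2 inside it.

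**Figure D3:**
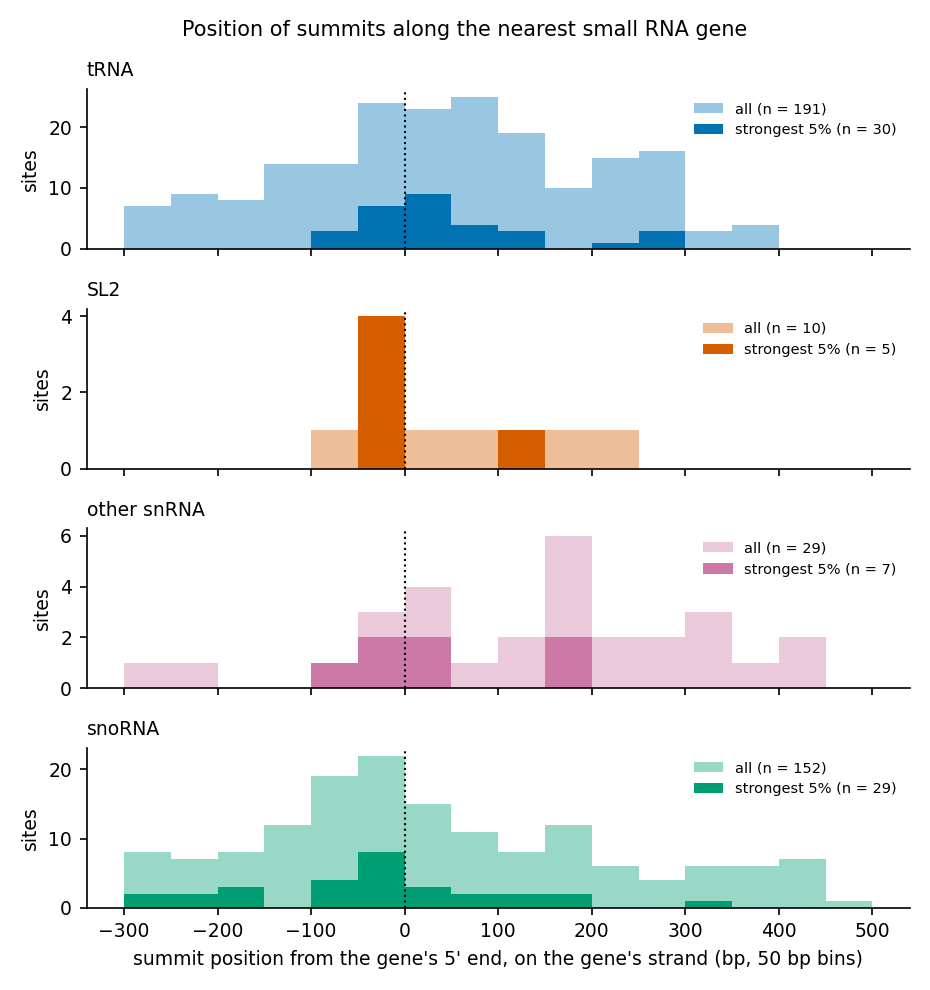
Number of sites by position of the summit relative to the 5′ end of the nearest small RNA gene on the gene's strand (bp, 50 bp bins, negative before the gene), by class; pale bars are all sites and dark bars those among the strongest 5%. No strong tRNA summit lies more than 100 bp before the gene, while 7 of the 29 strong snoRNA summits do.

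Repeated sequence moved with these results. The window of 190 of the 382 sites (49.7%) consisted only of words of 31 bases that occur once in the genome, against 85.1% of all entries. The share was 86.8% for snoRNA sites, 26.7% for tRNA sites, 20.7% for sites of other snRNA genes and 10% for SL2 sites. Reads from repeated words can be placed at more than 1 copy, and how the authors treated them is not given in the sources used here. Among windows of unique words, 25 of 132 snoRNA sites (18.9%) were in the strongest 5%, which is the share of all snoRNA sites, against 5.33% of all unique windows. For tRNA sites it was 4 of 51 (7.84%), and their median signal of 11.9 was that of the list.

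The tRNA sites with unique windows are also those whose gene lies partly or wholly outside the window. In 107 tRNA sites the 336 bp window held the whole gene, and 25 of these (23.4%) were in the strongest 5%, but only 1 of the 107 windows was unique. In the other 84 sites 5 (5.95%) were strong, and 50 of those windows were unique. Closeness to a tRNA gene and repeated words cannot be told apart in these lists. Among tRNA sites, 26 of the 140 windows with repeated words (18.6%) were among the strongest 5%, against the 7.84% of unique windows given above. Over the whole list the order was the other way, with 140 of 4462 repeated windows (3.14%) against 5.33% of unique ones. No tRNA window was repeated throughout: the lowest share of unique words was 66.7% and the median 85.3%.

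tRNA pseudogenes gave a further comparison. Of 209 tRNA pseudogenes in the RefSeq annotation, 24 (11.5%) had a pooled summit within 300 bp of the 5′ end, and none had one among the strongest 5%. Of the 612 tRNA genes 29.9% had such a summit, and 33 (5.39%) a strong one. Pseudogenes are less repeated than the genes, with 52.2% against 3.59% holding only unique words, so that the 2 groups differ in this respect too. At protein-coding 5′ ends 20.9% of 19973 had a summit within 300 bp and 1.99% a strong one. On this measure 35.3% of snoRNA genes, 17.1% of other snRNA genes and 50% of SL2 genes had a summit. The strong share was 8.09% for snoRNA genes, 6.31% for other snRNA genes and 27.8% for SL2 genes.

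**Figure D4:**
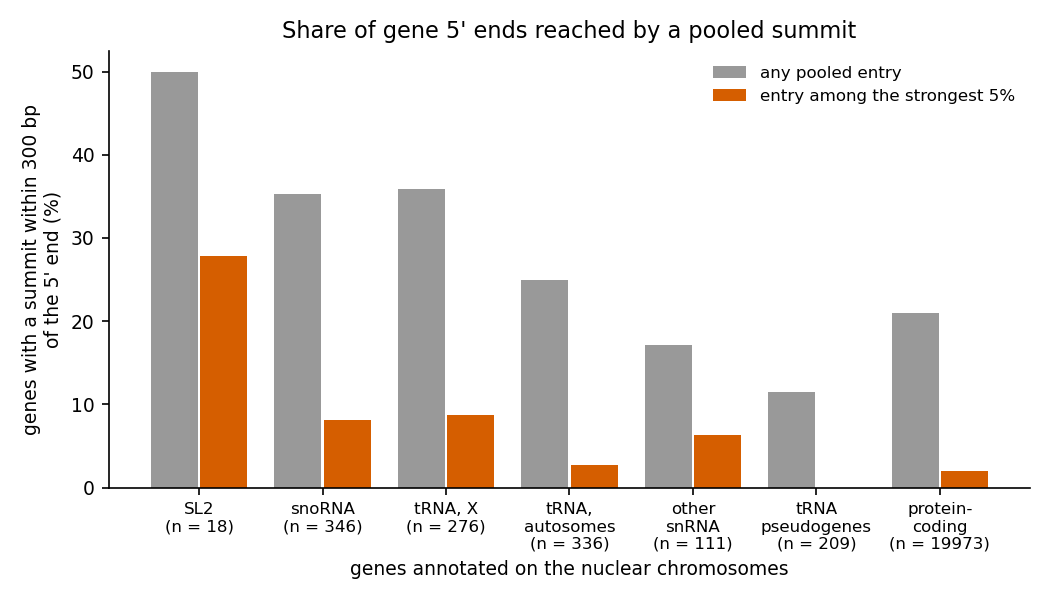
Percentage of genes with a pooled summit within 300 bp of the 5′ end, for any entry (grey) and for entries among the strongest 5% (orange), by class. SL2 genes have the highest bars at 50% and 27.8%, tRNA genes are higher on X than on the autosomes, and no tRNA pseudogene has a strong entry.

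The high ranks were shared unevenly by the replicates. An entry of replicate 1 met 254 of the sites (66.5%, against 59% of all entries), and an entry of replicate 2 met 293 (76.7%, against 61.7%). The strongest 5% of replicate 1 met 48 sites (12.6%, against 5.24%) and those of replicate 2 met 85 (22.3%, against 5.46%). Both together met 25 (6.54%, against 0.743%), of which 9 were tRNA sites, 5 SL2, 4 other snRNA and 7 snoRNA sites. Neighbouring sites could meet the same replicate entries, as the pairs beside sls-2.1 and beside W05B2.8 did. The 5 SL2 sites thus count sls-2.1 by both its entries and leave out sls-2.8, which had no replicate 1 entry. With 1 entry per overlapping group, 19 of 348 sites (5.46%) met the strongest 5% of both. Sites strong in replicate 2 alone numbered 60, and those strong in replicate 1 alone 23, while over all entries these groups were near in size, at 1415 and 1348. Sites strong in 1 replicate were thus more often strong in replicate 2, and the lists do not show whether depth differed between the replicates. No entry in either replicate list was met by 16 of the sites (4.19%, against 9.72% of all entries).

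Single sites show how far the replicates could part. The snoRNA site beside C18A3.12, named here after its values were seen, ranked 25 in replicate 1 and 15049 in replicate 2, with a pooled signal of 15.1. By contrast R166.10 and M7.15, also snoRNA genes, ranked 58 and 60 in replicate 1 and 100 and 96 in replicate 2, with pooled signals of 25.6 and 32.9. Both were likewise chosen afterwards. Taken by the same rule from each replicate list alone, sites beside small RNA genes were in the strongest 5% in 39 of 324 cases (12.0%) for replicate 1 and in 75 of 386 (19.4%) for replicate 2.

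**Figure D5:**
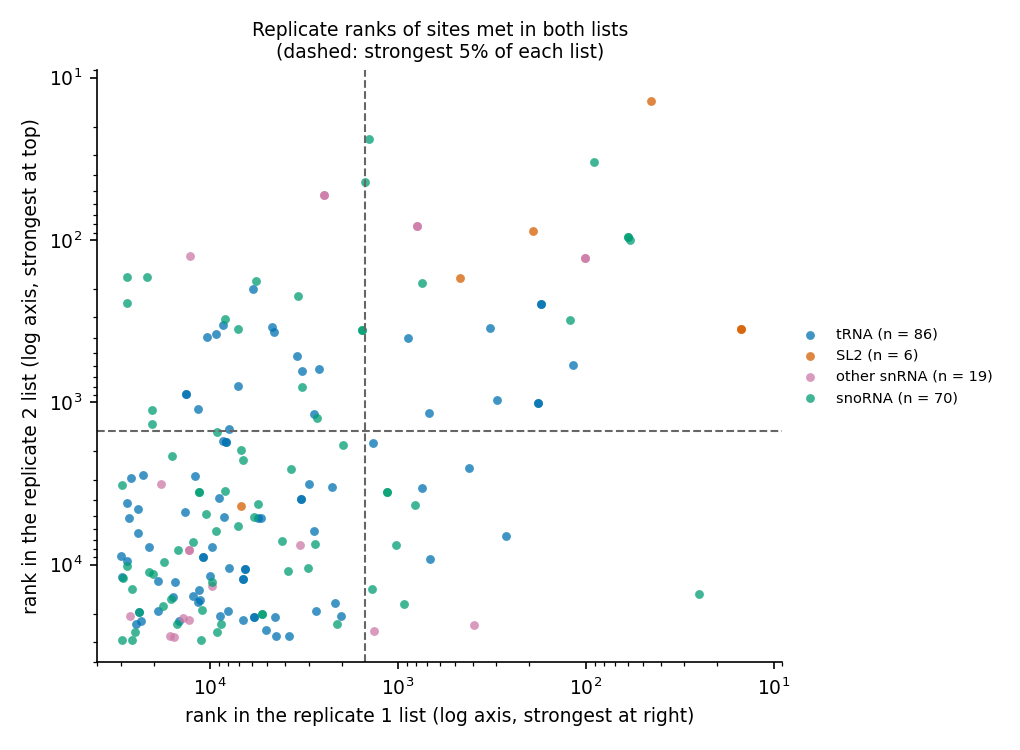
Rank of each site in the replicate 1 list against its rank in the replicate 2 list (both log axes, strongest at the upper right), for the 181 sites that met an entry in both lists, coloured by class, with dashed lines at the strongest 5% of each list. The upper right region holds 25 sites, and the SL2 site of sls-2.4, at ranks 45 and 14, is among them. Neighbouring sites that met the same replicate entries share a point.

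Sequence words in the windows followed the genes. The B box core GTTCGA, on either strand, was in 52.4% of tRNA windows and 75.7% of those with a whole tRNA gene, against 11.2% of all 30000 windows. In 72.2% of all tRNA genes it stands on the gene's strand, so its presence restates the position of the sites. The A box form searched, GGCNNAGTG, was in 5.76% of tRNA windows against 1.37%, and in 9.97% of tRNA genes. The Meis hexamer TGACAG was in 10.6% of all windows, 15.2% of tRNA windows, 10.5% of snoRNA windows, 10.3% of windows of other snRNA genes and 10% of SL2 windows. Its shorter core TGACA, which every TGACAG match also holds, was in 51.6% of the windows of the sites and 48.1% of all windows. In the 30 strong tRNA windows the full hexamer TGACAG was in 9 (30.0%), in 7 of them outside the gene, against 12.9% of all windows among the strongest 5%, and in the 29 strong snoRNA windows it was in 1 (3.45%).

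The hexamer was close to the summit in few of these. The median distance in the 9 strong tRNA windows was 114 bp. An exception, chosen after its values were seen, is the site of K11E4.t6, a tRNA-Lys gene in an intron of pix-1. There the summit fell inside the hexamer. That site had a signal of 24.9 and ranks of 682 and 1162 in the replicates. The stretch with 20 bases on either side, on the gene's strand and with the hexamer in capitals, reads as follows.
K11E4.t6 (tRNA-Lys, chrX:13730692-13730737, plus strand): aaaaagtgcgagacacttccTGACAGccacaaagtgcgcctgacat

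Other words searched were those that led an earlier description of these data. The repeat GAGAGA, on either strand, was in 32.5% of tRNA windows and 27.6% of snoRNA windows, against 17.0% of all windows. Among the strongest 5% it was in 18 of 30 tRNA windows (60%) and 11 of 29 snoRNA windows (37.9%), against 31.7% of all windows of that strength. In all 18 it stood outside the tRNA gene. GACGCA was in 13.2% of snoRNA windows and 8.38% of tRNA windows against 7.01%, and GCGCGA in 7.89% and 4.19% against 3.69%. A match of letters describes the window and shows no binding site.

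The upstream words were counted in snRNA genes with and without a site. AACCCG stood between 100 and 21 bases before 43 of 129 snRNA genes, SL2 genes included, with its first base at a median of 58 bases before the gene. TGTCGG stood there in 42, at a median of 47 bases before the gene. AACCCG was held by 19 of the 36 snRNA genes with a summit within 300 bp (52.8%) and by 24 of the 93 without (25.8%), while TGTCGG was held by 12 (33.3%) and 30 (32.3%). Only 0.490% of tRNA genes held AACCCG there, and 7.23% of snoRNA genes did.

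The same words marked a minority of snoRNA genes. Of the 38 snoRNA genes with either word 19 had a summit within 300 bp and 4 a strong one, against 121 and 25 of the 308 with neither word. In the 20 sites nearest to snoRNA genes with a word, the summit was before the gene in 14, with a median position 45 bp before the 5′ end, while the median over the 132 other snoRNA sites was 9 bp after it. The share among the strongest 5% was 20% with a word and 18.9% without. Most snoRNA sites, strong ones included, therefore lay beside genes in which neither word was found in this stretch.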

How the data were processed

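Peak lists from ChIP-seq of UNC-62 in whole L1 larvae were used as deposited, in build ce11: 1 list for each of 2 biological replicates, 1 called on the pooled replicates and 1 thresholded by IDR. Per the file headers the IDR list was derived from the other lists, and each list from alignments plus a further file that also entered control-normalized signal. The sources used here give no aligner, peak caller or IDR cutoff. The signal value per entry is a score deposited by the authors which served here for ranking and description within a list. Many −log10 q-values deposited by the authors were tied at the highest value, and they served only for an alternative ranking and 1 closing observation. The ce10 lists were not used.

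Coordinates are 1-based. Summits were the deposited peak offsets. Small RNA and protein-coding genes came from Ensembl release 115, and symbols from RefSeq, matched by WormBase identifier for 1087 of 1087 small RNA genes, because 9 Ensembl names stand for several loci. Both naming schemes gave the same number of SL2 genes, 18. Distances of 0 bp mean inside the gene record. An entry met another when 1 base or more was shared. Windows were the 336 bp pooled intervals (370 bp in replicate 1), and a word was unique when its 31 bases occurred once in the genome on either strand. Motifs were searched on both strands in the window, unless the gene's strand is named. Intervals are exact 95% binomial intervals. Replicates are labelled as biological, and no p-value was computed.

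Genes named are those beside IDR sites, the 5 strongest sites of each class, the strongest sites shared by both replicates (up to 10), those with the least unique sequence and those at the 300 bp boundary, with nearby coding genes. Others were chosen after their values were seen. The sites, words and lists were chosen with earlier results of these data known. Functions were checked on simulated data, and 11 of 11 planted values were recovered. Calculations used Python 3.11.15, numpy 2.4.6 and scipy 1.17.1, and plots matplotlib 3.10.9.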

Additional observations from a re-analysis of the deposited data

Results flagged for a closer look

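In the deposited −log10 q-values, which were used only for an alternative ranking, 54 pooled entries had the highest value of the column and yet were outside the IDR list. Of these, 9 lay beside small RNA genes (2.36% of the sites, against 0.18% of all entries): 5 beside snoRNA genes, 2 beside SL2 genes and 2 beside tRNA genes. Their signals ran from 31.4 to 34.4, below the weakest IDR interval.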

How the results depend on the processing

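In all, 15 alternatives were tried, 2 of them (sites not on X, and 1 entry per overlapping group) added after seeing the data. Of 255 values 176 stayed within the error of the main value or within 1.5 times a main count, and 79 moved. The share of sites in the strongest part of the list was above that of all entries in 11 of 11 settings, and for other snRNA sites in 10 of 11.

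At 100, and then at 1000 bp, the sites numbered 227 and 772, their median signal was 14.8 and 12.5, and 26.0% and 12.4% were in the strongest 5%. The genes reached numbered 221 and 643, an entry of replicate 2 met 81.9% and 69.2%, its strongest 5% met 28.2% and 14.4%, and windows were unique in 33.9% and 71.4%. At 1000 bp the strongest 5% of replicate 1 met 8.55% and those of both replicates 3.89%. With unique windows only, 190 sites and 182 genes were left. Of these sites replicate 2 met 72.1% and the strongest 5% of both 4.21%. For all entries with unique windows these shares were 62.4% and 0.779%. Over 1 kb from coding 5′ ends, 235 sites and 240 genes were left. At the strongest 1% and 10% the share of sites was 7.59% and 27.2%, in replicate 1 5.24% and 19.6%, and in replicate 2 9.16% and 30.9%. In both it was 2.62% at 1%. Over all entries the shares were 1.12% and 9.99% in replicate 1, and 1.19% and 10.3% in replicate 2. In both it was 0.21% at 1%. With the summit inside the other interval, or 50% of the window covered, replicate 1 met 57.6% and replicate 2 68.8%. Over all entries, replicate 1 met 53.2% in both settings, and replicate 2 met 55.5% and 55.6%. Unique windows made up 58.1% with 50-base and 41.4% with 24-base words, against 94.8% and 66.7% of all entries. Off X unique windows made up 59.0%, and 44.0% of sites were within 1 kb of a coding 5′ end. For all entries off X these shares were 83.8% and 37.7%.

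Leaving out a replicate moved the median signal to between 7.77 and 8.64, on each list's own scale, against list medians of 7.05 and 7.22. The share in the strongest 5% moved to between 12.0% and 19.4%. The unique share moved to between 49.5% and 55.9%, against 85.1% and 83.7% of all entries. In the pooled list 38.5% of sites were within 1 kb of a coding 5′ end, against 36.2% of all entries. In the replicate 1 list this share was 33.3%, against 36.5%, and in the replicate 2 list 37.0%, against 36.4%. No paired analysis was possible because there was only 1 group. The cause of these shifts was not tested. Depth is unknown, and repeated sequence limits what the tRNA, SL2 and snRNA sites can show.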
